A study of Mus musculus with 6 samples.

Results

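The fast and slow troponins and tropomyosins of mouse quadriceps femoris, a muscle group of the thigh that extends the knee, are described here from 9 genes of 22036 listed. Members were taken by symbol: the troponin T genes Tnnt3 (fast) and Tnnt1 (slow), the troponin I genes Tnni2 (fast) and Tnni1 (slow), the troponin C genes Tnnc2 (fast) and Tnnc1 (slow), and the tropomyosin genes Tpm1, Tpm2 and Tpm3. All 9 were listed and all 9 passed the filter on low counts. Total RNA was read as nanopore cDNA in 3 libraries of wild-type mice (Prr14-WT, called WT) and 3 of knockout mice (Prr14-KO, called KO). Replicate numbers follow sample order within each genotype. The labels do not match a WT library with the KO library of the same number. PRR14 links heterochromatin to the nuclear lamina, and the series title links it to mechanotransduction, myofibre identity and MEF2C. The labels give neither age, sex, strain, the deleted part of Prr14 nor a promoter that limits the deletion, and they do not say that the libraries come from separate mice. The p-values therefore reflect only how these libraries vary, which may be technical.

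Skeletal muscle contracts when calcium binds troponin C, which moves troponin I and troponin T, and with them the tropomyosin strand, off the myosin sites of the actin filament. Fast and slow fibres use different genes for each troponin subunit, so the paralog in use is a common marker of fibre type. Tropomyosin is a coiled coil of paired chains. Fast fibres use mainly the alpha chain of Tpm1 and slow fibres that of Tpm3, and both add the beta chain of Tpm2. Tpm1 and Tpm3 also have starts used outside striated muscle, and the deposited counts sum all transcripts of a gene. In bulk muscle, fewer fibres of a type and less of an RNA per fibre cannot be told apart.

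The libraries held between 1436099 and 1712975 counts over listed genes, and the 9 members together took 11.6 ± 0.867% of them in WT and 8.87 ± 0.994% in KO (SD, n = 3 each). Levels are CPM, counts scaled to a common library total with the TMM method, which corrects for a few abundant genes. Prr14 itself was read at 6.47, 7.39 and 8.10 CPM in WT replicates 1 to 3 and at 2.41, 6.16 and 1.69 CPM in KO replicates 1 to 3, on 3 to 12 counts a library. The genotypes did not overlap for Prr14, as for 12.2% of tested genes in this direction. It did not pass the test (log2 change -1.10 with SE 0.46, adjusted p = 0.197 in edgeR), and the library labelled KO replicate 2 was close to the WT libraries. The skeletal muscle markers Acta1, Ckm, Des and Mb summed to 88967 to 116267 CPM in WT and 73137 to 79583 CPM in KO, without overlap and in the same direction as the fast members. Most of the sum was Ckm and Acta1. For Des (log2 change 0.45) and Mb (-0.041) the genotypes overlapped. Acta1 was the 1 of the 4 that passed the test. The heart muscle markers Tnnt2, Tnni3, Myh6, Nppa and Myl7 summed to at most 6.64 CPM.

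The genes lie apart in the genome except for 1 fast pair. On GRCm38, Tnni2 (chromosome 7, 142441808 to 142444410) and Tnnt3 (chromosome 7, 142498836 to 142516009), both on the plus strand, are 54.4 kb from each other. Tnnt1 (chromosome 7, 4504570 to 4516382, minus strand) lies 1.92 kb from the heart troponin I gene Tnni3. Tnni1 (chromosome 1, 135779434 to 135810989, plus strand) lies 25.4 kb from Tnnt2, the heart troponin T gene. These heart neighbours were nearly silent: Tnni3 had 0 or 1 counts in every library and Tnnt2 between 0 and 8. Tnni2 and Tnnt3 are also on the chromosome of Prr14, 15.0 Mb from it each. Tnnc2 (chromosome 2, 164777161 to 164779967, minus strand), Tnnc1 (chromosome 14, 31208312 to 31211729, plus strand), Tpm1 (chromosome 9, 67022590 to 67049406, minus strand), Tpm2 (chromosome 4, 43514711 to 43523765, minus strand) and Tpm3 (chromosome 3, 90072649 to 90100902, plus strand) are on chromosomes of their own. All are protein coding.

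The 250 bases before the RefSeq start (GRCm38.p6) were available for 7 of the 9 members. They are printed for the fast and slow troponin C genes, the pair with the largest difference in ratio between genotypes, and for the slow troponin T and I genes, which ranked the libraries almost alike. Capitals mark a match to a searched motif, and each sequence runs 5′ to 3′ on the strand of its gene.
Tnnc2 (chr2:164779735-164779984, minus strand): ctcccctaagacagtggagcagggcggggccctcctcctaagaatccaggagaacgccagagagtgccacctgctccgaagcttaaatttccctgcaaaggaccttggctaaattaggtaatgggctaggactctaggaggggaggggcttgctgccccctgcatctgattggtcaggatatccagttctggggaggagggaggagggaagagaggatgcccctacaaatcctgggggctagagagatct
Tnnc1 (chr14:31208062-31208311, plus strand): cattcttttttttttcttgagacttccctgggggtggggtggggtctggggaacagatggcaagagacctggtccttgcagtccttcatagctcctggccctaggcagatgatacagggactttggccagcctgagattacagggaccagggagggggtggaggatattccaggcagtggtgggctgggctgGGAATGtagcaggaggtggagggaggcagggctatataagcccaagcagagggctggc
Tnnt1 (chr7:4515976-4516225, minus strand): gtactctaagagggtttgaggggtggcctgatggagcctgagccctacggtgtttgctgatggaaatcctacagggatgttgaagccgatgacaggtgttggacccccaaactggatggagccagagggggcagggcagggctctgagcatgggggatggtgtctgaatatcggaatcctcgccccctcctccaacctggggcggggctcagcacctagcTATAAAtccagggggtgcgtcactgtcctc
Tnni1 (chr1:135799171-135799420, plus strand): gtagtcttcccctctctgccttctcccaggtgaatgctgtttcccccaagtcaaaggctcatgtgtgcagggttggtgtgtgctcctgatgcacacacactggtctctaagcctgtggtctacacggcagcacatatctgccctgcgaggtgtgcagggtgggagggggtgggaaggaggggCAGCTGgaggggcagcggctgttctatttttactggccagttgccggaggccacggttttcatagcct
The motifs searched on both strands were the MEF2 site, the CArG box of serum response factor, the E-box CAGCTG, the MCAT element CATTCC and the TATA box TATAAA. The printed windows of the slow genes held 1 motif each. Tnnc1 had an MCAT element on its opposite strand, starting at -58. Tnnt1 had a TATA box at -30, and Tnni1 an E-box at -68. The fast gene Tnnc2 held none. Among the windows not printed, the fast gene Tpm1 had the same MCAT match at -56. Tpm2 had an E-box at -227, and the slow gene Tpm3 had an E-box at -175 in its first window. Motifs were thus found in windows of fast and slow genes alike. Of 32841 RefSeq windows of the same length, 12.6% held the MCAT element, 12.4% the TATA box and 13.0% the E-box. The MEF2 site and the CArG box, held by 2.92% and 1.47% of windows, were in no window of the 7 genes, which says only that these letters are not there. By the GENCODE annotation the Tnnc2, Tnnt1 and Tnni1 windows overlap annotated exons of the same gene, and the Tnnc1 window overlaps none.

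Fast troponin C and the fast tropomyosin gene were lower in KO muscle, and the fast troponin T and I genes did not pass the test. Of the 4 fast members, Tnnc2 and Tpm1 fell, 0 rose and 2 did not pass, against 3.28% of 6680 tested genes called lower and 2.96% called higher (quasi-likelihood test of edgeR at a Benjamini-Hochberg adjusted p under 0.05). At an unadjusted p under 0.05, all 4 were lower and 0 were higher, and DESeq2 and limma-voom each called 2 lower and 0 higher. Over all genes, DESeq2 called 181 lower and 141 higher, and limma-voom 195 lower and 151 higher. The share of all genes at an unadjusted p under 0.05 was not counted. The unadjusted counts here and for the lists below therefore have no background beside them. The median log2 fold change of the 4 was -0.53, beside 0.017 over all tested genes. Scaled by library totals alone, all tested genes had a median of 0.248, so every change here is relative to the TMM scale.

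Tnnc2, the calcium sensor of fast fibres, stood at 38480, 41463 and 48777 CPM in WT replicates 1 to 3 and at 24669, 26735 and 29428 CPM in KO replicates 1 to 3. Every KO library was below every WT library, as for 12.2% of tested genes. The gap between the genotypes was wider than the range of the KO libraries. The mean went from 42906 ± 5298 to 26944 ± 2387 CPM (log2 change -0.67 with SE 0.11, adjusted p = 0.0021 in edgeR). It passed with each library left out in turn, KO replicate 2 with its higher Prr14 count included (-0.67, adjusted p = 0.01 in edgeR), and was -0.44 with library totals (adjusted p = 0.0044 in edgeR).

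Tnnt3, which anchors the troponin complex to tropomyosin in fast fibres, had 22508, 25195 and 28216 CPM in WT and 16853, 18741 and 22295 CPM in KO replicates 1 to 3. The genotypes did not overlap, as for 25.8% of tested genes in either direction, but the highest KO library was just below the lowest WT library. The log2 fold change was -0.39 (SE 0.12) and did not pass (adjusted p = 0.0709 in edgeR). It passed with no filter on low counts (0.0013) and without KO replicate 3 (0.041), and with library totals it was -0.16. With no filter the adjusted p of other genes also became far smaller, as given at the end.

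Tnni2, the fast inhibitory subunit, had 6680, 6888 and 8177 CPM in WT and 4525, 5737 and 6906 CPM in KO replicates 1 to 3. KO replicate 3 was above 2 of the 3 WT libraries, so the genotypes overlapped. The log2 fold change was -0.34 (SE 0.14, adjusted p = 0.204 in edgeR). It passed with no filter (0.0162), under the same limit as Tnnt3. Without KO replicate 1 it was -0.20, and with library totals -0.11.

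**Figure D1:**
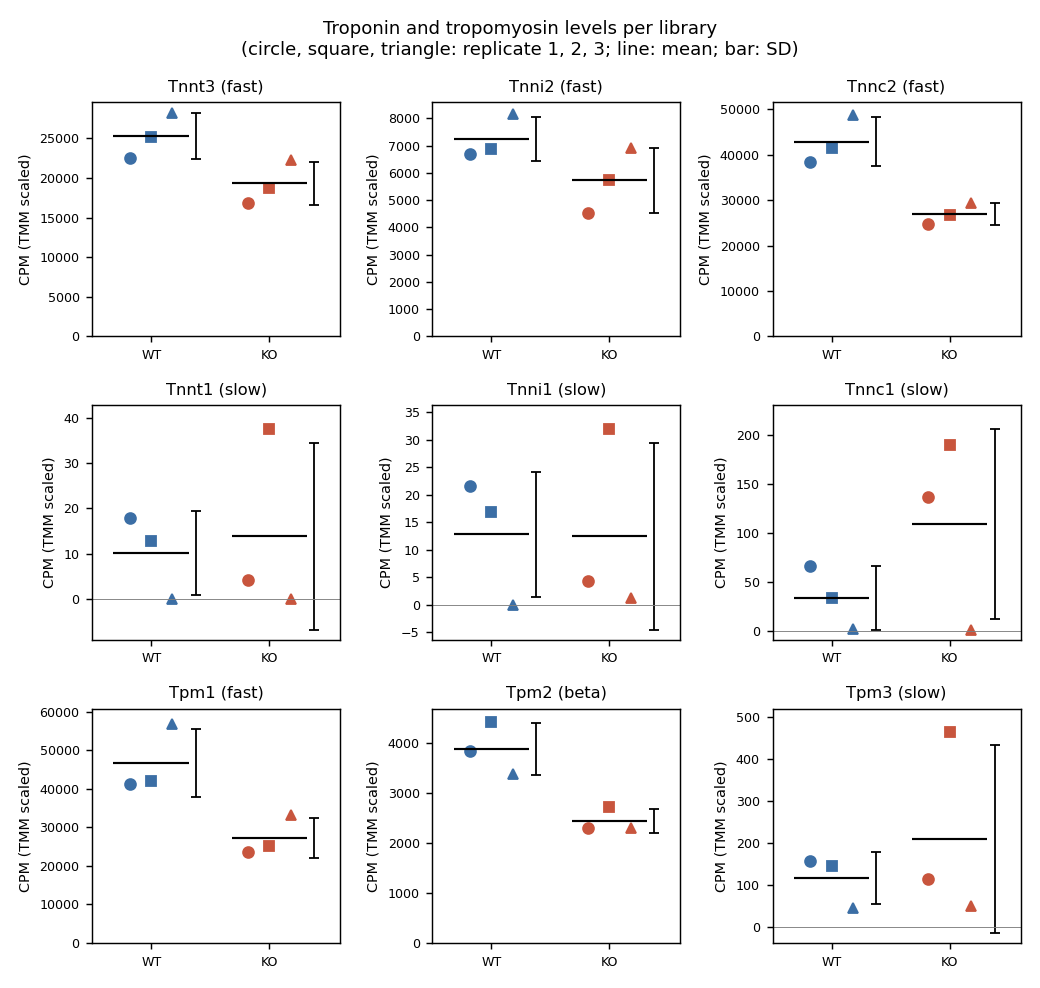
Level of each member in CPM on TMM-scaled library sizes (linear axes that include 0), with 1 point per library, a line at the mean and a bar of 1 SD for 3 WT and 3 KO libraries. Tnnc2, Tpm1 and Tpm2 are lower in every KO library, and the slow genes in the middle row and Tpm3 are highest in KO replicate 2 and near 0 or lowest in replicate 3 of both genotypes.

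The makeup of the fast troponin counts differed between the genotypes without overlap for Tnnc2 and Tnnt3, but 3 libraries a group cannot reach an exact p under 0.05. Within a library, the makeup of the fast troponin counts does not depend on how libraries are scaled. Tnnc2 made up 56.9, 56.4 and 57.3% of these counts in the WT libraries (replicates 1 to 3, as throughout) and 53.6, 52.2 and 50.2% in the KO libraries. Every KO library was below every WT library, and KO replicate 3 was the lowest. Means were 56.8 ± 0.447% and 52.0 ± 1.70%, a difference of -4.85 percentage points (two-sided exact permutation p = 0.1 with n = 3 each, 0.15 adjusted over the 3 shares). No lower p is possible with 3 against 3 libraries. Tnnt3 took the larger part of the difference, going from 33.5 ± 0.617% to 37.1 ± 0.826% with no overlap (exact permutation p = 0.1, adjusted 0.15). Tnni2 was at 9.61 ± 0.253% and 10.9 ± 1.00%, and KO replicate 1 lay inside the WT range (exact permutation p = 0.2). These shares were chosen after the values were seen. They are shares of reads, so they show unequal change, not which gene moved.

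**Figure D2:**
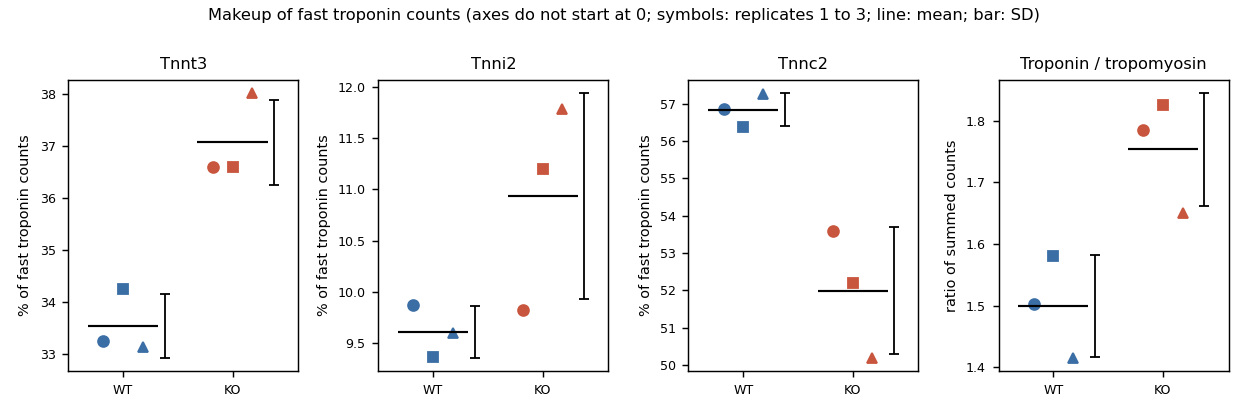
Share of each gene in the summed fast troponin counts (%) and the ratio of troponin to tropomyosin counts, 1 point per library with mean and SD for 3 WT and 3 KO libraries (axes do not start at 0). The Tnnc2 share is 56.4 to 57.3% in WT and 50.2 to 53.6% in KO, and the ratio is higher in each KO library.

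Both main tropomyosin genes of the muscle fell in KO. Tpm1, whose alpha chain lines the fast thin filament, had 41109, 42000 and 56737 CPM in WT and 23459, 25026 and 33195 CPM in KO replicates 1 to 3. No KO library reached the WT range, as for 12.2% of tested genes in this direction, and replicate 3 was the highest of each genotype. The mean went from 46615 ± 8777 to 27227 ± 5228 CPM (log2 change -0.78 with SE 0.16, adjusted p = 0.0135 in edgeR). The call was lost without KO replicate 1 (0.106) or KO replicate 2 (0.0576), which leaves 1 of the 4 fast members called in either case.

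Tpm2, the beta chain of fast and slow fibres, had 3846, 4429 and 3386 CPM in WT and 2304, 2722 and 2289 CPM in KO replicates 1 to 3. The genotypes did not overlap, as for 12.2% of tested genes in this direction, and here replicate 3 was the lowest of each genotype, the reverse of Tpm1. The mean went from 3887 ± 523 to 2439 ± 246 CPM (log2 change -0.67 with SE 0.11, adjusted p = 0.0022 in edgeR), -0.45 with library totals (0.0352) and -0.76 without KO replicate 2 (0.0021). Smooth muscle also makes Tpm1 and Tpm2. Its markers Acta2, Myh11, Tagln, Cnn1 and Lmod1 summed to 233 to 281 CPM in WT and 287 to 395 CPM in KO. Of the 4 tested 0 passed in edgeR (1 was higher at an unadjusted p under 0.05), and the part of smooth muscle in the levels of Tpm1 and Tpm2 was not tested.

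Tpm3, the slow alpha-tropomyosin gene, had 158, 145 and 44.5 CPM in WT and 114, 464 and 49.7 CPM in KO replicates 1 to 3. KO replicate 2 was far above the rest, and replicate 3 was lowest in both genotypes. The log2 fold change was 0.85 (SE 1.04, adjusted p = 0.738 in edgeR), and it was -0.50 without KO replicate 2 (0.811). RefSeq gives Tpm3 a second start inside the gene. An entry of related name, Tpm3-rs7, was listed with 0 to 2 counts a library, beside 66 to 754 for Tpm3, so few reads were assigned to it. How the authors' counting treated reads that match both entries is not stated.

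The shares of the tropomyosin genes overlapped between the genotypes. The exact test of 3 against 3 libraries cannot go below 0.1, so it could not have called a shift of any size. Of the summed counts of the 3 genes, Tpm1 made up 91.9 ± 2.16% in WT and 90.9 ± 2.37% in KO (two-sided exact permutation p = 0.6 with n = 3). Tpm2 made up 7.89 ± 2.02% and 8.33 ± 1.68% (exact permutation p = 0.6). Tpm3 made up 0.245 ± 0.149% and 0.742 ± 0.797% (exact permutation p = 0.4). All 3 adjusted values were 0.6. Divided by median transcript length, the shares of Tpm1 were 93.5 ± 1.74% and 92.8 ± 1.91%. The sum of troponin counts over the sum of tropomyosin counts was 1.50, 1.58 and 1.42 in WT and 1.79, 1.82 and 1.65 in KO replicates 1 to 3. It was higher in every KO library (1.50 ± 0.0825 and 1.75 ± 0.0915, exact permutation p = 0.1, the smallest possible). That ratio was also chosen after the values were seen.

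**Figure D3:**
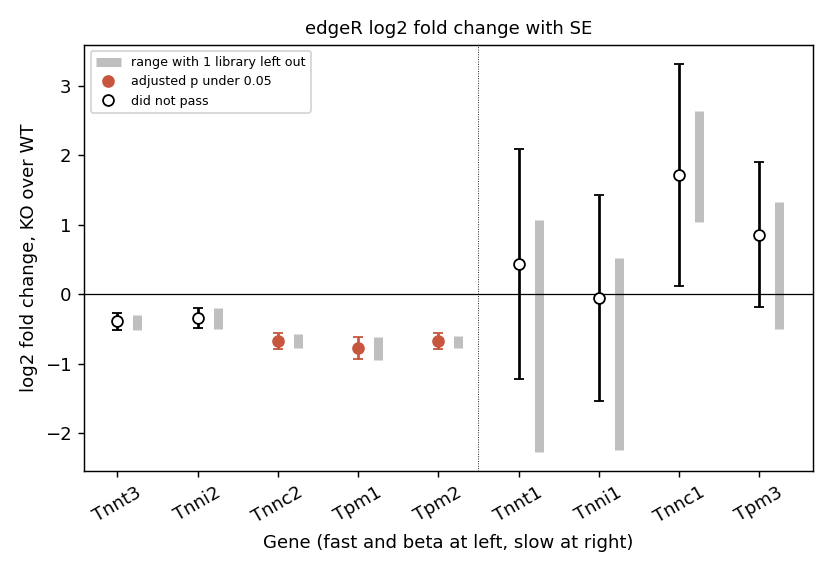
edgeR log2 fold change of KO over WT for each member with its SE (points; filled where adjusted p is under 0.05) and the range over the 6 fits with 1 library left out (grey bars). Tnnc2, Tpm1 and Tpm2 lie between -0.67 and -0.78, while the SEs of the slow genes run from 1.04 to 1.65 and the grey bars of Tnnt1, Tnni1 and Tpm3 cross 0.

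The slow troponins were read at very low levels and none was called between the genotypes. Of the 4 slow members (Tnnt1, Tnni1, Tnnc1 and Tpm3) 0 fell, 0 rose and 4 did not pass in edgeR, with 0 at an unadjusted p under 0.05 and 0 by DESeq2 and limma-voom. Of all tested genes 6.24% were called in either direction. The SE of each was above 1 on the log2 scale, so a 2-fold difference is within 1 SE for these genes.

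Tnnt1, the slow troponin T gene, had 25, 19 and 0 counts in WT and 7, 61 and 0 counts in KO replicates 1 to 3. It was not seen in replicate 3 of either genotype, where 3 counts would be 2.02 CPM (WT) and 1.69 CPM (KO). Means were 10.3 ± 9.25 and 13.9 ± 20.6 CPM (log2 change 0.43 with SE 1.65, adjusted p = 0.928 in edgeR), with the sign turning without KO replicate 2 (-2.26) or WT replicate 3 (-0.17).

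Tnni1, the slow inhibitory subunit, had 30, 25 and 0 counts in WT and 7, 52 and 2 counts in KO replicates 1 to 3. The order of libraries was that of Tnnt1 except among the lowest libraries, with KO replicate 2 highest and replicate 3 at or near 0. Means were 12.8 ± 11.3 and 12.5 ± 17.0 CPM (log2 change -0.05 with SE 1.48, adjusted p = 0.993 in edgeR). Without KO replicate 2 the value was -2.23 (0.559).

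Tnnc1, which serves both slow fibres and heart, had 92, 49 and 2 counts in WT and 226, 309 and 2 counts in KO replicates 1 to 3. It departed from the other slow subunits in KO replicate 1, which was the second highest library for Tnnc1 and the fourth for Tnnt1 and Tnni1. Means were 33.5 ± 32.4 and 109 ± 97.4 CPM (log2 change 1.71 with SE 1.60, adjusted p = 0.651 in edgeR). The value ranged from 1.04 to 2.64 with 1 library left out and was 1.06 with limma-voom, passing in none.

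Tnnc1 made up 62.6% of slow troponin counts in WT replicate 1 (exact 95% binomial interval 54.2 to 70.4%, 147 counts) and 52.7% in WT replicate 2 (42.1 to 63.1%, 93 counts). In KO replicate 1 it was 94.2% (90.4 to 96.8%, 240 counts) and in KO replicate 2 it was 73.2% (68.7 to 77.4%, 422 counts). The interval of KO replicate 1 did not meet those of the other 3. The remaining libraries had 2 (WT) and 4 (KO) slow troponin counts in all, too few for a share. In KO replicate 1 the heart genes Tnni3 and Myl7 had 0 counts, Nppa 1, Myh6 2 and Tnnt2 8, its highest count in any library. The heart actin gene Actc1 had 33.8, 29.6 and 64.1 CPM in WT and 117, 49.9 and 174 CPM in KO replicates 1 to 3. It did not pass (log2 change 1.42, adjusted p = 0.264 in edgeR). The intervals cover counting error only, and this share was chosen after the values were seen.

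Set against their fast paralogs, the slow genes gave ratios that differed more between libraries than between genotypes. Slow genes took 0.156, 0.0849 and 0.0016% of all troponin counts in WT and 0.313, 0.505 and 0.0039% in KO replicates 1 to 3. Replicate 3 was lowest in both genotypes, and the genotypes overlapped. In KO replicate 1, 226 of the 240 slow troponin counts were Tnnc1. Tnnt1 and Tnni1 had 7 counts each there, fewer than in WT replicates 1 and 2. Means were 0.0808 ± 0.0773% and 0.274 ± 0.253%, and on transcript length 0.0785 ± 0.0756% and 0.287 ± 0.261%. The log2 ratio of fast to slow troponin counts was 11.71 ± 3.42 in WT and 10.14 ± 3.79 in KO, a difference of -1.57 (two-sided exact permutation p = 0.5 with n = 3). Without WT replicate 3 the difference was 0.39. Over 4 pairs, the differences were -0.15 for Tnnt3 over Tnnt1, -0.59 for Tnni2 over Tnni1, -1.77 for Tnnc2 over Tnnc1 and -1.23 for Tpm1 over Tpm3 (exact permutation p 0.4 to 0.9, each 0.9 adjusted over the 4). None exceeded the SD within either genotype, and 3 against 3 libraries cannot give an exact p under 0.1, so this test could not have called a shift of any size.

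The slow myosin genes ranked KO replicate 2 highest, as the slow members did. So did the other slow genes Csrp3, Casq2, Myoz2 and Atp2a2, while Ankrd2 and Mybpc1 did not. Myh7, the slow myosin heavy chain, had 59.0, 40.3 and 2.02 CPM in WT and 0.603, 83.1 and 0.565 CPM in KO replicates 1 to 3. Myl2, a slow myosin light chain, had 25.2, 16.1 and 0.675 CPM in WT and 10.3, 78.8 and 0.565 CPM in KO. Myl3, the slow essential light chain, had 81.3, 74.6 and 10.8 CPM in WT and 44.0, 485 and 46.3 CPM in KO. KO replicate 2 was highest for these 3 genes and for the 4 slow members, and WT replicate 3 was the lowest WT library for all 7. KO replicate 1 held 226 Tnnc1 counts with Myh7 at 0.603 CPM, while KO replicate 2 was high in both. Ankrd2, a stress-responsive ankyrin repeat protein of slow muscle, had 199.97, 179 and 39.8 CPM in WT and 42.8, 139 and 41.8 CPM in KO. WT replicates 1 and 2 were its highest libraries and WT replicate 3 its lowest. It did not pass (adjusted p = 0.651 in edgeR). Mybpc1, named the slow myosin-binding protein C, was higher in WT, at 1261, 1747 and 872 CPM against 292, 427 and 190 CPM in KO. Its lowest level was above the highest of Myh7. It ordered the libraries as the fast myosin gene Myh1 did, from 5134 CPM in WT replicate 2 to 527 CPM in KO replicate 3 for Myh1. Whether its reads came from slow fibres was not tested.

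**Figure D4:**
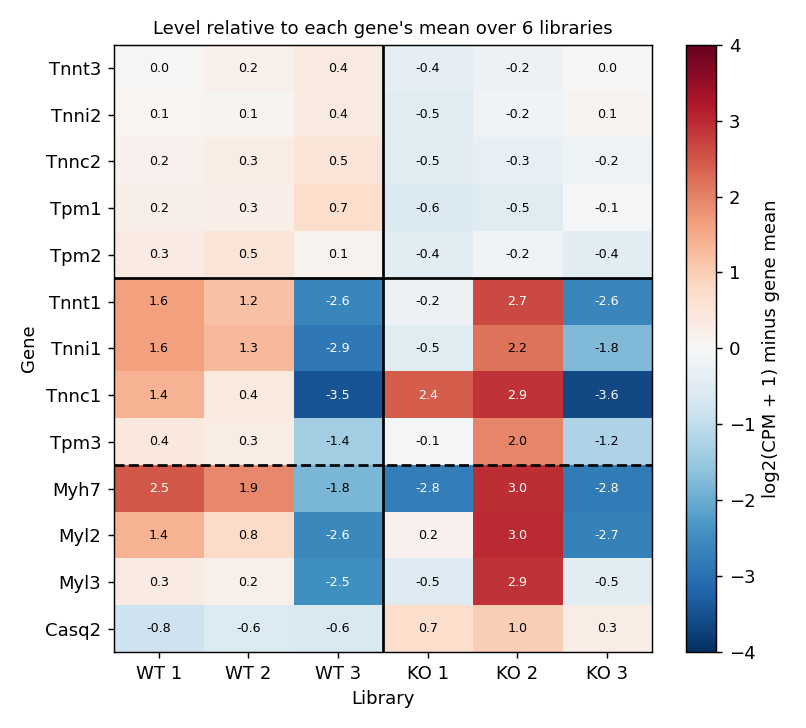
log2(CPM + 1) of each gene in each library minus the gene's mean over the 6 libraries (colour scale and printed value), with fast members and Tpm2 on top, slow members in the middle and 4 other slow-fibre genes below. The slow members are low in WT replicate 3 and KO replicate 3 (between -3.6 and -1.2) and high in KO replicate 2 (2.0 to 2.9), while the fast members and Tpm2 stay within 0.7 of their means.

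Within each genotype the fast members leaned the other way. Replicate 3 was the highest of its genotype for Tnnt3, Tnni2, Tnnc2 and Tpm1 and the lowest of its genotype for Tnni1 and Tpm3. For Tnnc1 it was also the lowest, and for Tnnt1 it was at 0 in both genotypes. KO replicate 1 was the lowest KO library for those 4 fast genes without being the highest for any slow member. Of 6 marker lists of other cells, 5 had their lowest WT sum in replicate 3, and smooth muscle did not (277 CPM against 281 and 233 CPM). Adipocyte markers summed to 101 CPM there against 310 and 612 CPM in the other WT libraries, and macrophage markers to 99.2 against 222 and 346 CPM. In KO replicate 3 adipocyte markers were again lowest of the genotype (295 against 451 and 491 CPM), and macrophage markers (128 CPM) lay between the other KO libraries (123 and 139 CPM). Fibroblast (1506 CPM), endothelial (124 CPM), red blood cell (1974 CPM) and smooth muscle (300.4 CPM) markers there also lay between the other KO libraries. The part of these cells in the levels of the slow genes was not tested.

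The genes most like the slow troponins, by Pearson r of log2 CPM over the 6 libraries with the mean of Tnnt1, Tnni1 and Tnnc1 and among 3680 genes of at least 20 CPM, were Myl2 (0.99), Stag2 (0.97), Fxyd6 (0.97), Mgst1 (0.96), U2af1 (0.95) and Ddx56 (0.94). Those most like the fast troponins were Tnrc6a, Rnf7, Gpcpd1, Pcmtd1, Tcea3 and Ndufv3 (0.98 to 0.9995). Myl2 is the slow light chain given above, and none of the 12 passed the test between genotypes. The values describe 6 libraries that share scaling and depth, and high values are common when so many genes are searched over so few points.

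Other genes of the thin filament were lower more often than higher in KO. Of 21 listed, 18 were tested: 3 fell, 0 rose and 15 did not pass in edgeR, beside 3.28% lower and 2.96% higher over all genes (9 lower and 1 higher at an unadjusted p under 0.05, and 3 lower and 1 higher by both DESeq2 and limma-voom). Their median log2 fold change was -0.30, beside 0.017 over all tested genes. Neb, the nebulin ruler along the filament, had 10493, 10546 and 11518 CPM in WT and 5555, 5648 and 6146 CPM in KO replicates 1 to 3, a clear gap (log2 change -0.91, adjusted p = 2.64e-05 in edgeR). Acta1, the skeletal actin on which troponin and tropomyosin sit, went from 33915, 35269 and 43663 CPM to 23756, 22144 and 25747 CPM, a log2 fold change of -0.66 (adjusted p = 0.0027 in edgeR). Nrap, a protein of thin filament assembly, fell by 0.56 on the log2 scale (adjusted p = 0.0286 in edgeR), and leaving out WT replicate 1 or 2 or KO replicate 1 or 3 ended the call (0.061 to 0.137), as did library totals (0.168). Klhl40, which stabilises thin filament proteins, was above every WT library in each KO library, as were 13.5% of tested genes (log2 change 0.83, adjusted p = 0.0519 in edgeR). It was called higher in the 9 other settings that kept all 6 libraries and, of the 6 fits with 1 left out, in that without WT replicate 1.

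Of 9 other genes of fast fibres tested, 5 fell, 0 rose and 4 did not pass, beside 3.28% lower and 2.96% higher over all genes (7 lower and 0 higher at an unadjusted p under 0.05, and 6 lower and 0 higher by both DESeq2 and limma-voom), with a median log2 fold change of -0.73. The log2 changes of the 5 were -1.36 for Myh4, the fastest myosin heavy chain, -0.86 and -0.76 for the fast myosin light chains Myl1 and Mylpf, -0.73 for the calsequestrin Casq1 and -0.65 for parvalbumin, Pvalb. The call for Pvalb was lost with library totals (0.0756), with upper-quartile scaling and with any library but KO replicate 3 left out (0.0517 to 0.316). Leaving out KO replicate 1 also ended the call for Myl1 (adjusted p = 0.19 in edgeR), with 3 genes still called. The 4 that did not pass were Myh1 (log2 change -2.08, adjusted p = 0.157 in edgeR), Atp2a1 (-0.28, 0.163), Actn3 (-0.12, 0.651) and Mybpc2 (0.025, 0.943), and the genotypes overlapped for Actn3 and Mybpc2. Whether the troponins differed from these genes was not tested.

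Of 12 other slow genes 9 were tested: 0 fell, 1 rose and 8 did not pass, beside the same 3.28% and 2.96% over all genes (1 lower and 1 higher at an unadjusted p under 0.05, and the same numbers by DESeq2 and by limma-voom). The gene that rose was Casq2, the calsequestrin of heart and slow fibres, at 13.7, 16.8 and 16.2 CPM in WT and 41.6, 51.1 and 31.1 CPM in KO replicates 1 to 3 (log2 change 1.40 with SE 0.24, adjusted p = 0.0024 in edgeR). Unlike the slow troponins, Casq2 was higher in all 3 KO libraries, KO replicate 3 included. Mybpc1 was the lower gene at an unadjusted p under 0.05 (log2 change -2.10, adjusted p = 0.0687 in edgeR) and passed as lower with DESeq2, limma-voom and edgeR without its robust option. The denervation markers Chrna1, Myog and Musk, 3 of 3 tested of a list of 6, rose, beside 2.96% called higher over all genes. Their log2 changes were 4.30, 3.64 and 1.72 (adjusted p = 1.02e-05, 1.69e-05 and 0.0142 in edgeR). The other 3, Chrng, Runx1 and Ncam1, had at most 8 counts in any library of either genotype and were not tested. The summed level of the list was 51.1 to 74.8 CPM in WT and 581 to 980 CPM in KO. Most of it was Chrna1 (means 13.5 and 267 CPM) and Myog (35.8 and 446 CPM). Chrna1, Myog and Musk were thus high in the same libraries in which Tnnc2, Tpm1 and Tpm2 were low, which restates the split by genotype. A link between the denervation genes and the lower levels was not tested.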

How the data were processed

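The authors deposited raw read counts for each Ensembl gene and library (unit per the file headers). Their deposited CPM, scaled to a library total of their own, entered no test. Per the labels' protocols, cDNA was made by template switching and amplified in 14 cycles; minimap2, DESeq2 1.6.3 and GRCm38 are named in the submitters' processing notes. How reads were counted, with which annotation and whether by strand, is not stated in the sources used here. Libraries are numbered 1 to 3 per genotype in accession order.

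The test was run on the counts with edgeR 4.0.16 (R 4.3.3). Here filterByExpr (minimum count 10, minimum total 15) left 6680 genes, TMM scaled the libraries, and the robust quasi-likelihood test compared KO with WT, with Benjamini-Hochberg adjusted p over all tested genes at 0.05. SE is the log2 fold change divided by the square root of F. Ratios add 0.5 to both counts and were tested by exact permutation over libraries, which cannot go below 0.1 for 3 against 3. The steps were tested on simulated data. Alternatives were 4 scalings, 2 filters, DESeq2 1.42.0, limma 3.58.1 (voom), robust=FALSE and each library left out.

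The members and lists were chosen with earlier results of these data known. The named genes were the members, Prr14, up to 4 passing genes with the smallest p per list, Myh7, Myl2, Myl3 and the 6 most similar genes to each troponin class. Pvalb, Klhl40, Mybpc1, Csrp3, Myoz2, Atp2a2 and the denervation genes were named after their values were seen. Ankrd2, Myh1, Atp2a1, Actn3, Mybpc2, Actc1, Tpm3-rs7 and the single marker genes of skeletal and heart muscle were also outside that rule. Symbols matched 22022 identifiers. Positions and transcript lengths (median of basic protein-coding transcripts) are from GENCODE M21 on GRCm38, and promoter sequences from RefSeq on GRCm38.p6. The labels name no molecular identifiers, so intervals cover counting error only.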

Additional observations from a re-analysis of the deposited data

How the results depend on the processing

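Tnnc2 and Tpm2 were called lower in all 15 alternatives, and Tpm1 in 13. With no filter 4 of the fast members passed as lower, and without single libraries 1 to 3 did. The fit with no filter also gave far smaller adjusted p elsewhere at nearly the same change. For Myh4 it went from 6.73e-06 (log2 change -1.36) to 1.83e-40 (-1.37) in edgeR. The passes of Tnnt3 and Tnni2 with no filter carry that limit. No slow member passed in any alternative. Signs of slow members turned: Tnnt1 with limma-voom (-0.31) and between -2.26 and 1.07 with 1 library left out; Tnni1 with library totals (0.16) and limma-voom (0.21) and between -2.23 and 0.52; Tpm3 between -0.50 and 1.32. Myh7, Myl2 and Myl3 ranged from -5.66 to 0.37, from -1.38 to 1.78 and from -0.29 to 2.26.

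Leaving out libraries moved the fast to slow difference for troponins from -3.75 to 0.39, for Tnnt3/Tnnt1 from -2.10 to 1.78 and for Tnni2/Tnni1 from -1.77 to 1.45. For Tnnc2/Tnnc1 it was -4.11 to -0.071 and for Tpm1/Tpm3 -2.12 to -0.31. The KO minus WT differences in the Tpm1 and Tpm2 shares moved from -2.19 to 0.27 and from -0.68 to 1.39 percentage points. The KO minus WT difference in the Tnnc2 share of fast troponin counts stayed between -5.64 and -3.95 percentage points.

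With no filter 362 genes were lower and 344 higher; with library totals 649 were higher. With 1 library left out 154 to 188 were lower and 83 to 180 higher (101 without WT replicate 1, 83 without WT replicate 2 and 129 without WT replicate 3). Of other thin filament genes 5 were lower with no filter and 2 to 5 with 1 library left out (5 without WT replicate 3 or KO replicate 2), and 1 was higher (Klhl40) with DESeq2 size factors, upper-quartile scaling, library totals, the 20 most abundant genes left out, no filter, 5 CPM in 3 libraries, DESeq2, limma-voom and robust=FALSE. With 1 library left out 0 to 1 were higher, Klhl40 without WT replicate 1 and a different gene without KO replicate 2. Of other fast genes 3 to 5 were lower with 1 library left out. Of other slow genes 1 was lower (Mybpc1) with DESeq2, limma-voom and robust=FALSE. The causes were not tested. No paired analysis was possible because the genotypes share fewer than 2 numbers in the titles, and the replicate numbers used here follow accession order. Replicate 3 held 0 to 2 counts of each slow troponin in both genotypes, so lower levels there cannot be resolved.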
